A study of Mus musculus with 6 samples.

Results

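The 9 inflammatory cytokine genes described here were followed through 6 droplet single-cell libraries, which counted unique molecular identifiers (UMIs) per gene and cell in dissociated mouse kidney and mammary tumor. The genes were taken by symbol, Il1a, Il1b, Il1rn, Tnf, Il6, Il10, Il12b, Ifnb1 and Csf3, and all 9 were found among the 31053 genes listed for each tissue. Kidney came from 12 week old male C57BL/6 mice, and tumor from 10 week old female MMTV-PyMT mice, in which the polyoma virus middle T antigen is expressed from the mouse mammary tumor virus promoter, so the tumor is a transgene-driven model. Each tissue gave 1 library per condition, and per the study's methods a single replicate was sequenced, with the control and platform conditions run on tissue of 1 mouse. The control was minced tissue digested with shaking for 60 min and then pipetted and vortexed. The platform was a set of microfluidic devices for digestion, disaggregation and filtration, and its suspension was eluted at 15 min (platform 15 min) and again at 60 min after the collagenase had been replaced (platform 60 min). The platform 60 min library therefore holds cells that left the tissue after the first elution. All 6 suspensions had type I collagenase, DNase, red cell lysis and a sort of viable cells in common.

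Macrophages, monocytes, dendritic cells and granulocytes make most of these proteins when pattern recognition receptors are engaged, and transcription of several of the genes begins soon after stimulation. IL-1 alpha and IL-1 beta share a receptor that IL-1 receptor antagonist (Il1rn) blocks, TNF acts on NF-kB through its own receptors, and IL-10 restrains the others. IL-6 and G-CSF (Csf3) are also made by fibroblasts, endothelium and epithelium, IL-12 p40 (Il12b) is typical of dendritic cells, and IFN-beta (Ifnb1) is the type I interferon gene induced in most cell types by viral or bacterial nucleic acids and lipopolysaccharide.

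The genes lie on 6 chromosomes of GRCm38, the sequence of the mm10 build used for the deposited files. Il1a (chr2:129299610-129309972) and Il1b (chr2:129364570-129371139) are separated by 54.6 kb on the reverse strand, and Il1rn (chr2:24336853-24351494) is on the forward strand of that chromosome. Ifnb1 (chr4:88522025-88522774, reverse strand) has 1 exon. Tnf lies at chr17:35199381-35202007, Il6 at chr5:30013114-30019981, Il10 at chr1:131019845-131024974, Il12b at chr11:44400063-44414033 and Csf3 at chr11:98701263-98703629. In their 3′ untranslated regions, 8 of the 9 genes had at least 3 copies of ATTTA, the core of the AU-rich elements that shorten the life of many mRNAs, compared with 36.2% of 21169 genes. The count was 10 in Il6, 8 in Tnf, 6 each in Il10, Il12b and Csf3, 4 each in Il1b and Ifnb1, 3 in Il1a and 0 in Il1rn.

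The proximal promoters of the members on which the results turn are shown because Ifnb1 and Tnf were the members higher at platform 60 min in macrophages of both tissues, and Il6, Il1b and Il12b were highest in different cell types. The sequences are from the RefSeq promoter table for GRCm38.p6, which held 7 of the 9 members, and they are written 5′ to 3′ on the gene's strand. Capitals mark letters that match GGANNTTCC (an NF-kB core), AANNGAAA (a core shared by interferon regulatory factor sites), TGANTCA (an AP-1 site), each searched on both strands, or TATAAA (the TATA box, gene strand only).
Ifnb1, chr4:88522865-88522954, from 160 to 71 bases before the RefSeq start: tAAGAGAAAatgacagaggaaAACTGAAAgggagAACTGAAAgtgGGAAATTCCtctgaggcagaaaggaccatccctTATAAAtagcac
Tnf, chr17:35202028-35202167, from 160 to 21 bases before the RefSeq start: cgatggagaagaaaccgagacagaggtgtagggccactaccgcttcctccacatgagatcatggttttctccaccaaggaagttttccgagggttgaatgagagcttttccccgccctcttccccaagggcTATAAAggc
Il6, chr5:30012954-30013093, from 160 to 21 bases before the RefSeq start: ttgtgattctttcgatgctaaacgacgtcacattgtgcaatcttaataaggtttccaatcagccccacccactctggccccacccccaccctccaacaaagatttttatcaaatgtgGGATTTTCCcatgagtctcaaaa
Il1b, chr2:129371160-129371299, from 160 to 21 bases before the RefSeq start: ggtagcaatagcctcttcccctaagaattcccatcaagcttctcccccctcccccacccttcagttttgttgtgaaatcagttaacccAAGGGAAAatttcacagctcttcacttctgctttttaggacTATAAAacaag
Il12b, chr11:44399903-44400042, from 160 to 21 bases before the RefSeq start: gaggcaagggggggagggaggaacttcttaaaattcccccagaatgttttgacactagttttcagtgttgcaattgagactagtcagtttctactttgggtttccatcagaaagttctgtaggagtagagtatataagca
Over the whole 300 base windows, the NF-kB letters were found in 3 members (Ifnb1, Il6 and, outside the stretch shown, Tnf) and in 4.26% of 32851 promoters, and the AP-1 letters in 3 (Il1a, Il1rn and Il6) and 7.81%. The interferon regulatory factor core was found in 3 members (Ifnb1 with 3 matches, Il1b and Il1rn) and 23.9% of promoters, and the TATA box in 4 (Il1a, Il1b, Tnf and Ifnb1) and 8.32%. The 3 matches of that core in Ifnb1 stand side by side before its NF-kB letters, and the Il12b window held none of the 4 motifs.

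Cells were assigned to classes by counting marker genes, of which none was a member. The macrophage gate held 820 cells in the kidney control, 127 in the kidney platform 15 min library and 1490 in the kidney platform 60 min library, and 923, 937 and 1422 cells in the tumor libraries in the same order. Ptprc, the pan-leukocyte gene CD45, which was in no marker list, was detected in 86.3% of kidney and 89.5% of tumor macrophage-gate cells, against 0.708% of proximal tubule cells and 1.80% of tumor epithelial cells. The libraries kept between 5736 and 9936 cells with medians of 4583 to 9476 UMIs, 79.1% to 97.1% of them were gated, and the median mitochondrial share in kidney was 7.38% in the control, 20.4% at platform 15 min and 8.59% at platform 60 min. Between 53 and 211 cell barcodes were shared by a pair of kidney libraries and between 16 and 21 by a pair of tumor libraries. Levels are CPM, the UMIs of a gene in every 1000000 UMIs of the cells counted. Intervals are 95% and cover counting error only, since no condition had a replicate, and no p-value is given. A ratio counted as higher or lower when it was at least 2-fold with at least 20 UMIs over both libraries and 50 cells in each.

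Over all 3 libraries, each member had a class in which its level was highest. In kidney, Il1b reached 11189.7 CPM in granulocytes, followed by dendritic cells at 4646 CPM, while monocytes and macrophages at 4338 and 4299 CPM had overlapping intervals. Il1rn was also highest in granulocytes, at 1381 CPM against 158 CPM in monocytes and 18.0 CPM in macrophages. Tnf was highest in macrophages, at 817 CPM, and monocytes, dendritic cells and granulocytes could not be ordered. Ifnb1 stood at 430.0 CPM in macrophages and 20.5 CPM in dendritic cells, which overlapped endothelium at 18.3 CPM. Il12b stood at 617 CPM in dendritic cells, 64.7 CPM in monocytes and 5.29 CPM in macrophages, and Il10 at 16.0 CPM in macrophages and 5.24 CPM in dendritic cells. Il1a was highest in granulocytes (115 CPM), with dendritic cells (45.4 CPM) and macrophages (38.4 CPM) overlapping each other. Il6 in monocytes (22.9 CPM) overlapped stroma, and Csf3 in granulocytes (18.5 CPM) overlapped monocytes. Only classes of at least 50 cells over the 3 libraries were ordered, which leaves out the mast cell or basophil gate (16 cells), described at the end for Il6. The sums follow the libraries that gave most cells, and the order differed between libraries: in the control Il1b stood at 3940 CPM in macrophages, 3684 CPM in dendritic cells and 1649 CPM in monocytes, while at platform 60 min monocytes stood at 6813 CPM and dendritic cells at 5187 CPM.

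In tumor the same class led Il1b, Il1rn, Il12b and Ifnb1 as in kidney, and another led Il1a and Tnf. Il1a was led by macrophages at 770.1 CPM, with granulocytes at 294.5 CPM and monocytes at 130.5 CPM. Tnf was led by granulocytes at 751 CPM, ahead of macrophages at 674.5 CPM. Il10 was level between monocytes (109.7 CPM) and macrophages (109 CPM). Il6 and Csf3 were led by cells that are not leukocytes. Il6 was highest in stromal cells, at 117 CPM, and then in endothelium, at 67.3 CPM, and Csf3 was highest in endothelium, at 124 CPM, and then in epithelium, at 34.7 CPM. For Csf3 this order came from platform 60 min: in the control endothelium stood at 51.6 CPM without its richest cell and epithelium at 83.8 CPM without its own, and at platform 15 min endothelium had no UMI. Kidney and tumor depths were evened separately, so their levels stand side by side and were not compared.

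**Figure D1:**
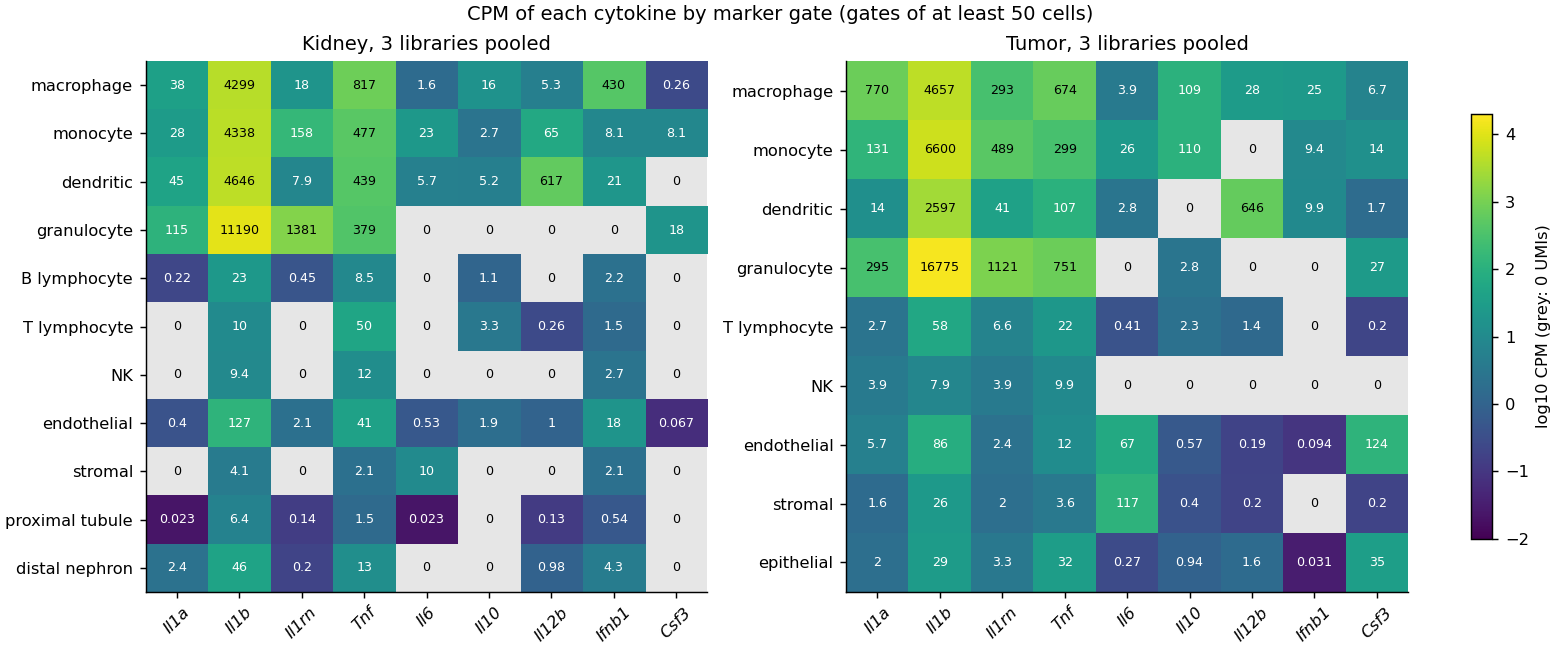
Level of each member (CPM, colour by log10 CPM, grey for 0 UMIs) in each gated class, with all libraries of a tissue summed, for kidney and tumor. Granulocytes hold the highest Il1b and Il1rn levels in both tissues, dendritic cells the highest Il12b, macrophages the highest Ifnb1, and tumor stroma, endothelium and epithelium hold Il6 and Csf3.

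Summed over all kept cells, the members stood lowest in the platform 15 min library of both tissues. In kidney, Il1b was at 819 CPM in the control, 36.5 CPM at platform 15 min and 1205 CPM at platform 60 min, Tnf at 82.5, 2.78 and 253 CPM, and Ifnb1 at 2.82, 0.0488 and 139 CPM. In tumor, Il1b was at 1479, 681 and 1917 CPM, Tnf at 125, 77.6 and 347 CPM, and Ifnb1 at 1.11, 0.292 and 15.8 CPM. In such sums, fewer cells of a type and less RNA per cell cannot be told apart, and the macrophage gate held 13.9%, 1.51% and 15.0% of kidney cells and 16.1%, 16.1% and 23.6% of tumor cells. All 8 kidney members with enough UMIs were lower at platform 15 min than in the control, where 28.5% of all genes were lower and 2.23% higher, and 8 of 9 were lower in tumor, where 3.8% were lower and 3.57% higher. From platform 60 to 15 min, 8 of 8 kidney members were lower (43.2% of genes lower, 5.13% higher) and 9 of 9 tumor members (9.56% lower, 5.91% higher). At platform 60 min, Tnf, Il6, Il12b and Ifnb1 were higher than in the control in kidney (4 of 9 members, 10.5% of all genes) and in tumor (4 of 9, 9.09%), and Csf3 was lower in both (1 of 9, against 1.18% of genes in kidney and 2.72% in tumor). The kidney Csf3 ratio of 0.413 rests on 9 against 14 UMIs, and its interval, 0.158 to 1.03, includes 1. The remaining comparisons were therefore made within gated classes.

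Within kidney macrophages, every member with enough UMIs was lower at platform 15 min than in the control. Il1b, the secreted pyrogen that inflammasomes activate, stood at 3940 CPM in the control, 1961 CPM at platform 15 min and 4695 CPM at platform 60 min. Tnf stood at 427, 138 and 1109 CPM. Ifnb1 stood at 16.8, 2.97 and 717 CPM, from 94, 2 and 6493 UMIs. The 15 min level was the lowest of all 3 genes, and the 60 min level was the highest, by a small margin for Il1b and a wide one for Ifnb1. For Ifnb1 the order of control and 15 min rests on 1 control cell, without which the control stood at 2.32 CPM.

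The 4 members Il1a, Il1rn, Il10 and Il12b had no UMI among the 672762 UMIs of the 127 kidney macrophages of the 15 min library, which allows up to 4.46 CPM at the floor of 3 UMIs, the one-sided 95% limit of a count of 0. Il1a, the alarmin form of IL-1, stood at 47.7 CPM in the control and 35.5 CPM at platform 60 min, Il1rn at 27.0 and 13.8 CPM, and Il10 at 21.3 and 13.9 CPM. Il12b stood at 10.7 CPM in the control, from 60 UMIs in 4 cells, and at 2.32 CPM at platform 60 min. For Il1a, Il1rn and Il10 the 2 longer digestions were thus above the limit of the short one.

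Compared with the control, the 15 min level in kidney macrophages was at least 10.7-fold lower for Il1a, at least 6.05-fold for Il1rn, at least 4.77-fold for Il10 and at least 2.40-fold for Il12b, each with the count of 0 set at 3 UMIs. It was 2.01-fold lower for Il1b (1.90 to 2.13), 3.09-fold for Tnf (2.51 to 3.84) and 5.65-fold for Ifnb1 (1.52 to 47.3). All 7 members with enough UMIs were lower, against 7.05% of all genes tested, with 6.15% of genes higher, and the median ratio was 0.210 for the members and 1.09 for all genes. Il1b lies at the 2-fold limit, and its ratio of 15 min to control was 0.505 with 4 markers required, 0.512 with a lead of 2 and 0.524 with mitochondrial UMIs taken out. The Il12b call was lost with the count of 0 set at the upper end of its exact two-sided interval, 3.69 UMIs (1.95-fold lower), without the cell richest in it (ratio 0.967), and without barcodes shared between libraries. After thinning to 1000 UMIs per cell, 2 members (Il1b and Tnf) were lower, and the others had fewer than 20 UMIs or, for Il1a and Ifnb1, passed no limit. Mitochondrial genes took a median of 4.80% of a gated cell's UMIs in the control and 7.69% in the 15 min library, and 81 of the 94 control UMIs of Ifnb1 were in 1 cell. Without that cell the control held 13 Ifnb1 UMIs, and the call was lost for want of 20 UMIs.

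At platform 60 min, Ifnb1 was 42.7-fold above the control in kidney macrophages (34.8 to 52.9) and Tnf 2.60-fold above it (2.49 to 2.72). Without the richest cell of each library, Ifnb1 rested on 6405 against 13 UMIs, a ratio of 305 (178 to 573). Il6 was at least 4.95-fold higher, from 24 UMIs in 16 cells against 0. Il12b was 4.62-fold lower, from 21 against 60 UMIs. Il1b (ratio 1.19, 1.17 to 1.21), Il1a (0.743, 0.630 to 0.878), Il10 (0.655) and Il1rn (0.512) were past the limit in neither direction, although Il1rn was at 0.390 without its richest cell. Of 8 members with enough UMIs, 3 were higher, against 4.87% of genes, and 1 was lower, against 1.04%. In this gate the markers of the distal nephron summed to 37.5 CPM in the control and 220.8 CPM at platform 60 min, those of endothelium to 34.3 and 69.6 CPM and those of T lymphocytes to 4.64 and 14.2 CPM, and their part in the result was not tested. The platform libraries also differed from each other: from 60 to 15 min, Ifnb1 was 241-fold lower (66.8 to 1993), Tnf 8.02-fold and Il1a at least 7.95-fold, and 6 of 8 members were lower, against 8.67% of genes, with none higher, against 6.3%.

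In tumor macrophages the 15 min library was again the lowest for all 9 members, with a different set of large differences. Il10, the main anti-inflammatory member, stood at 193.5 CPM in the control, 5.21 CPM at platform 15 min and 110.2 CPM at platform 60 min, and the number of cells with an Il10 UMI was 291, 13 and 222. Il1rn stood at 425, 67.5 and 330 CPM. Ifnb1 stood at 5.08, 1.77 and 50.5 CPM. Il10 and Il1rn were thus highest in the control, and Ifnb1 at platform 60 min.

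Il1a, Il1b and Tnf were abundant in every tumor library. Il1a stood at 762, 439 and 953 CPM, Il1b at 5260, 3142 and 5084 CPM and Tnf at 422, 295 and 1042 CPM in the control, platform 15 min and platform 60 min libraries. The lowest of these 9 values, Tnf at 15 min, still came from 2657 UMIs. Il12b stood at 30.8, 6.98 and 37.4 CPM, Il6 at 3.97, 0.443 and 5.79 CPM and Csf3 at 16.3, 0 and 4.06 CPM.

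Relative to the control, the 15 min level in tumor macrophages was 37.1-fold lower for Il10 (27.8 to 50.7), 6.29-fold for Il1rn (5.78 to 6.85), 8.95-fold for Il6 (3.25 to 34.3), 4.42-fold for Il12b (3.37 to 5.88), 2.86-fold for Ifnb1 (1.62 to 5.35) and at least 48.9-fold for Csf3. These were 6 of 9 members, against 4.56% of all genes, while none was higher, against 10.8%, and the median ratio was 0.226 for the members and 1.20 for all genes. The ratios of Il1a (0.576), Il1b (0.597) and Tnf (0.698) were below 1 without passing the limit. After thinning, Il10, Il1rn and Il12b were lower. Granulocyte markers summed to 159.9, 32.7 and 62.3 CPM in this gate, and their part in these results was not tested. At platform 60 min, Ifnb1 was 9.95-fold (7.57 to 13.3) and Tnf 2.47-fold (2.39 to 2.55) above the control, 2 of 9 members against 5.26% of genes, and Csf3 was 4.01-fold lower, 1 of 9 against 2.71%. From 60 to 15 min, 8 of 9 members were lower and none higher, against 3.94% and 4.75% of genes, by 28.5-fold for Ifnb1, 21.1-fold for Il10, 3.54-fold for Tnf and 2.17-fold for Il1a. Ifnb1 and Tnf were the members higher at platform 60 min in the macrophage gates of both tissues, and a test of the tissues against each other was not possible with 1 library each.

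**Figure D2:**
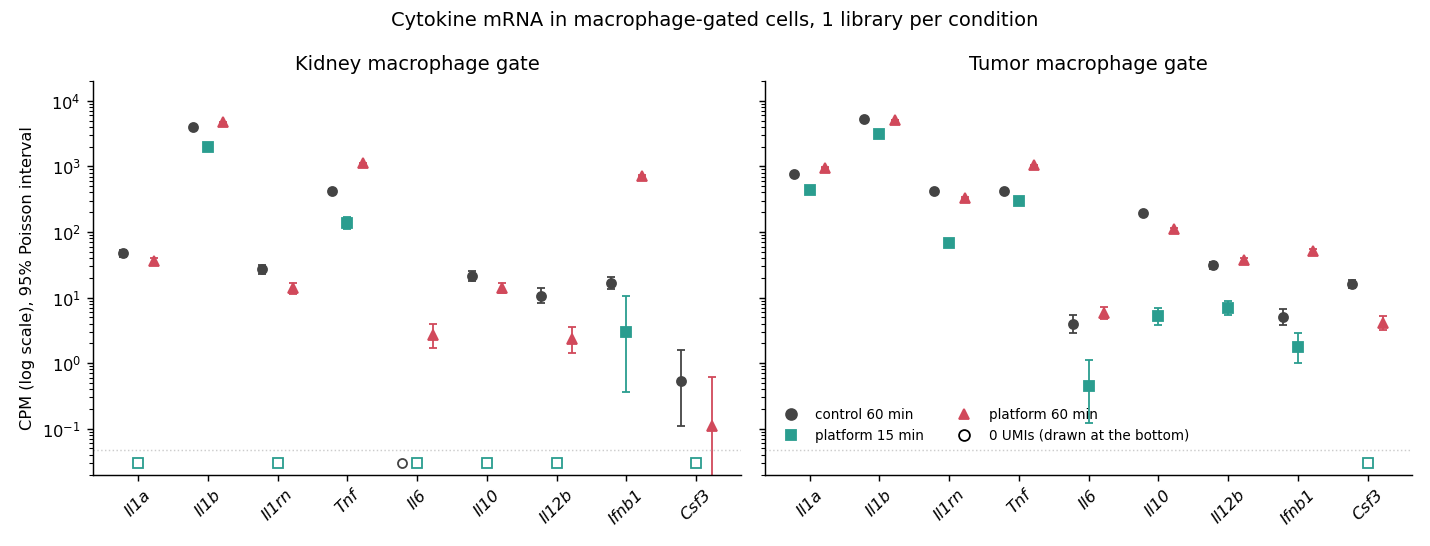
Level of each member (CPM, log axis) in macrophage-gated cells of the control, platform 15 min and platform 60 min libraries of kidney and tumor; points are single libraries, bars are exact 95% Poisson intervals and open markers at the bottom stand for a count of 0. The 15 min point is lowest for Il1b, Tnf and Ifnb1 in both tissues, and the Ifnb1 point at platform 60 min is at 717 CPM in kidney and 50.5 CPM in tumor.

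**Figure D3:**
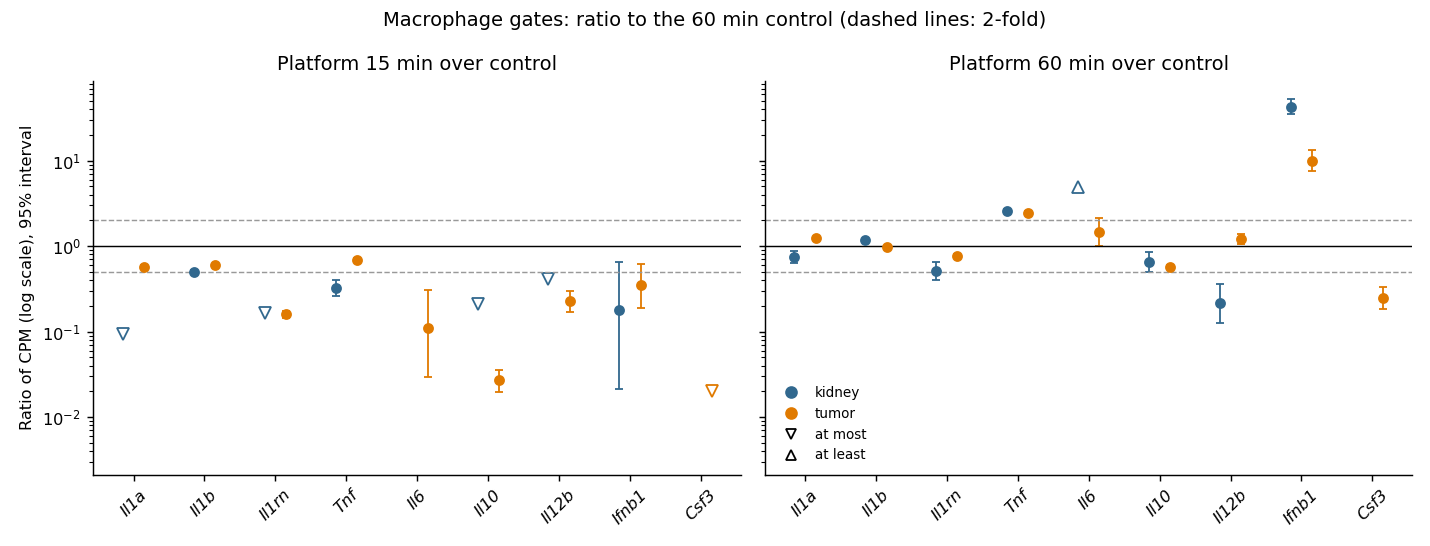
Ratio of the levels of each member between libraries in macrophage-gated cells (log axis, 1 means no difference), with 95% intervals for counting error; open triangles stand for ratios whose count of 0 was set at 3 UMIs. Ratios of platform 15 min to control lie below 1 for the members drawn, and those of platform 60 min to control are above 2 for Tnf and Ifnb1 in both tissues.

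The share of macrophages with a UMI followed the same order, read beside proximal tubule cells in kidney and epithelial cells in tumor. In kidney macrophages Il1b was detected in 81.0% of control, 74.8% of 15 min and 84.9% of 60 min cells, and in 66.4%, 59.3% and 73.8% after each cell was thinned to 1000 UMIs. Proximal tubule cells, with median depths of 6545, 7416.5 and 6755 UMIs against 6877.5, 5245 and 6071.5 in macrophages, showed 2.88%, 0.518% and 8.61% unthinned and 0.664%, 0.0445% and 1.58% thinned. Tnf was detected in 52.9%, 34.6% and 65.0% of kidney macrophages (23.2%, 13.01% and 41.8% thinned) and in 0.349%, 0.0592% and 2.62% of proximal tubule cells, so the tubule share was also highest at platform 60 min.

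In tumor macrophages, with median depths of 11982, 9315 and 11917.5 UMIs, Il10 was detected in 31.5%, 1.39% and 15.6% of cells, and in 12.1%, 0.432% and 5.17% after thinning. Tnf was detected in 72.0%, 56.4% and 78.1% (25.5%, 18.5% and 44.0% thinned). Tumor epithelial cells had median depths of 8394, 9803.5 and 9179 UMIs, and Tnf was detected in 12.6%, 13.5% and 19.6% of them (1.97%, 2.41% and 3.22% thinned). Their Il10 share was 0.582%, 0.0758% and 0.738%. Epithelial cells without a myeloid marker held Tnf at 35.0, 36.7 and 45.4 CPM and Il1b at 19.7, 13.4 and 18.7 CPM. Whether the Tnf share of epithelium is a background was not tested.

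Ifnb1 was carried by a minority of macrophages at high counts. In the kidney platform 60 min library 516 of 1490 macrophages (34.6%, 22.3% after thinning) had an Ifnb1 UMI, 222 had at least 10 and the highest cell had 88, while 82 cells (5.50%) held 50% of the gene's UMIs. In the control 9 cells (1.10%) and in the 15 min library 1 cell (0.787%) had a UMI. Proximal tubule cells of the 60 min library showed Ifnb1 in 0.956% (0.341% thinned). The tumor 60 min library had 156 positive macrophages (10.97%), against 16 (1.73%) in the control and 7 (0.747%) at 15 min, and 3 of 2575 epithelial cells. The macrophage gate held 89.1% of all Ifnb1 UMIs in the kidney 60 min library.

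Macrophages with more Ifnb1 had more Tnf in both 60 min libraries. In kidney, Tnf stood at 515 CPM in the 974 cells without Ifnb1, 1579 CPM in the 294 cells with 1 to 9 UMIs and 2560 CPM in the 222 cells with at least 10, where CPM leaves out Ifnb1 itself. The median depth of the 3 groups was 5548, 6705.5 and 7033 UMIs. Il1b was at 4314, 5355 and 5216 CPM, and Il10 at 17.5, 13.4 and 2.46 CPM. In tumor the groups held 1266, 132 and 24 cells, Tnf stood at 874, 2226 and 2594 CPM, Il1b at 4706, 7760 and 8476 CPM and Il10 at 101.4, 167 and 221 CPM. The Il10 level was thus lowest in the cells richest in Ifnb1 in kidney and highest in them in tumor. The single control cell of kidney with at least 10 Ifnb1 UMIs had 9138 CPM of Tnf. These are cells of 1 library each and are given as a description.

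**Figure D4:**
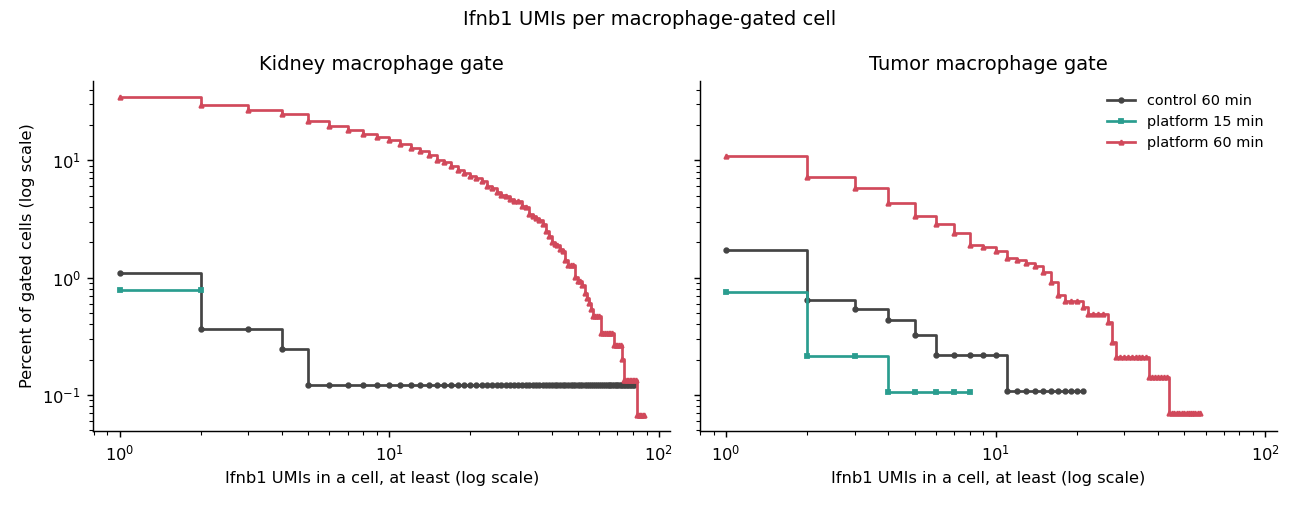
Percent of macrophage-gated cells (log axis) that had at least the number of Ifnb1 UMIs on the horizontal axis, 1 line per library, for kidney and tumor. The kidney platform 60 min line starts at 34.6% of cells and reaches 88 UMIs, and the tumor platform 60 min line starts at 10.97%, both above the control and platform 15 min lines.

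Dendritic cells of kidney had higher Il12b, Tnf, Il1a and Ifnb1 at platform 60 min than in the control. Il12b, which encodes the subunit shared by IL-12 and IL-23, stood at 89.8 CPM in 58 control cells and 848 CPM in 140 platform 60 min cells, from 57 and 1356 UMIs, while the 7 dendritic cells at 15 min had none. It was detected in 6 and 47 cells (10.3% and 33.6%, and 3.45% and 23.7% after thinning). Tnf stood at 120 CPM and 574 CPM, Il1a at 11.03 and 60.7 CPM and Ifnb1 at 0 and 29.4 CPM. The platform 60 min library was above the control by 9.44-fold for Il12b (7.24 to 12.5), 4.79-fold for Tnf (3.79 to 6.14), 5.50-fold for Il1a (2.57 to 14.0) and at least 6.22-fold for Ifnb1, 4 of the 5 members with enough UMIs against 6.22% of genes, with none lower, against 4.22%. Il1b (ratio 1.41) was past the limit in neither direction. The macrophage markers summed to 59.9 CPM in the control and 48.8 CPM at platform 60 min in these cells, and those of the proximal tubule to 36.2 and 76.9 CPM, of the distal nephron to 15.8 and 40.7 CPM and of endothelium to 12.6 and 31.3 CPM, whose part in the result was not tested. A single cell held 261 of the Il12b UMIs, and the ratio was 13.8 without the richest cell of each library. In tumor, Il12b stood at 488 CPM in 31 control, 1079.9 CPM in 17 platform 15 min and 619.9 CPM in 79 platform 60 min dendritic cells, too few for a ratio. Tumor dendritic cells with a UMI of Ccr7, the receptor for homing to lymph nodes and one of the gate's markers, had 1313 CPM of Il12b (61 cells), and those without had 80.6 CPM (66 cells), whereas kidney dendritic cells had 636 and 609.8 CPM.

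Granulocytes went against the macrophage pattern for Il1b. In tumor granulocytes Il1b stood at 12369 CPM in the control (281 cells), 19827 CPM at platform 15 min (106 cells) and 33016 CPM at platform 60 min (64 cells), so the control was the lowest. Il1rn stood at 1181, 424 and 1954 CPM and Il1a at 275, 17.3 and 837 CPM, both lowest at 15 min. Il1a was 3.05-fold, Il1b 2.67-fold and Tnf 2.60-fold above the control at platform 60 min, 3 of 5 members with enough UMIs against 3.55% of genes, with none lower, against 14.1%, and the Tnf ratio was 1.88 without the upper limit on genes per cell. At platform 15 min Il1a was 15.9-fold, from 4 against 189 UMIs, Il1rn 2.79-fold and Csf3 at least 2.35-fold lower, 3 of 5 against 11.9% of genes, and none was higher, against 9.78%. The Csf3 call was lost (1.91-fold) with 3.69 UMIs in place of 3 for the count of 0. The macrophage markers summed to 731, 147 and 209 CPM in these gates, and their part in the result was not tested. In kidney the gate held 35, 9 and 45 granulocytes, too few for a ratio, with Il1b at 7831, 19551 and 11791 CPM, Il1rn at 2144, 288 and 1106 CPM, and no UMI of Il6, Il10, Il12b or Ifnb1 in any library.

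Tumor monocytes had more Il1a, Il1b, Tnf, Il6 and Ifnb1 at platform 60 min (99 cells) than in the control (79 cells). Il1a stood at 40.1 CPM in the control, 37.0 CPM at platform 15 min and 257 CPM at platform 60 min, Il1b at 3995, 3991 and 10192 CPM and Il6 at 3.65, 20.4 and 47.5 CPM. The control and 15 min levels were thus close for Il1a and Il1b. The platform 60 min library was above the control by 6.40-fold for Il1a, 2.55-fold for Il1b, 2.49-fold for Tnf, 13.04-fold for Il6 (4.196 to 65.5, from 47 against 3 UMIs) and at least 6.10-fold for Ifnb1, 5 of 8 members against 3.71% of genes, with none lower, against 4.99%. At platform 15 min only Il10 passed the limit among 5 members with enough UMIs, where 6.22% of genes were lower and 8.3% higher, at 19.9-fold lower (6.60 to 98.3) and 5.56 CPM from 3 UMIs, while the control and platform 60 min stood at 111 and 166 CPM. Kidney monocytes (31, 8 and 43 cells) had Il1b at 1649, 2135 and 6813 CPM and Tnf at 76.2, 54.4 and 865 CPM.

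Csf3, the growth factor of neutrophils, was found in tumor epithelium and was scarce there at platform 15 min. It stood at 88.7 CPM in 3439 control epithelial cells, 0.427 CPM in 3960 platform 15 min cells and 21.3 CPM in 2575 platform 60 min cells, from 2800, 17 and 533 UMIs. The share of cells with a UMI was 6.34%, 0.227% and 2.37%, and 2.74%, 0% and 0.824% after thinning, and 24 of the control cells held 50% of the UMIs. The 15 min level was 208-fold below the control (130 to 358) and the 60 min level 4.17-fold below it (3.80 to 4.58). In epithelial cells without a UMI of any myeloid marker (767, 830 and 547 cells), Csf3 stood at 123, 1.44 and 21.9 CPM, so the order was kept. By comparison, Csf3 had 1 UMI in the 527 stromal cells of tumor.

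Other members also differed in the epithelial gate, some of them through single cells. At platform 15 min 5 of 7 members were lower than in the control (Il1a, Il1rn, Il10, Il12b and Csf3), against 3.18% of genes, with none higher, against 2.55%. Only Csf3 was still called lower once cells with a myeloid marker were left out or after thinning. With the cells that had a myeloid marker left out, Il1a had 10 UMIs in the control and 2 at platform 15 min. Il10 then had 3 and 0 and Il12b 0 and 0, so all 3 members had too few for a call. Il1rn had 17 and 14 UMIs, and its ratio did not pass the limit. Il1b (2.11-fold), Il6 (5.67-fold), Il10 (3.66-fold) and Il12b (3.53-fold) were higher at platform 60 min, 4 of 8 against 3.1% of genes, and Csf3 was lower, 1 of 8 against 1.6%. However, 111 of the 115 Il12b UMIs and 45 of the 64 Il10 UMIs were in 1 cell each, and the macrophage markers stood at 217, 333 and 372 CPM in the gate. Once cells with a myeloid marker were left out, Il1b was not higher, from 107 UMIs in the control and 77 at platform 60 min. Il6, Il10 and Il12b then had 0 and 3, 3 and 4, and 0 and 0 UMIs, too few for a call. Tnf stood at 26.2, 31.3 and 41.3 CPM in this gate and passed the limit in neither comparison, and it stood at 35.0, 36.7 and 45.4 CPM in the epithelial cells without a myeloid marker.

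Tumor endothelium and stroma carried Il6. In endothelium Il6 stood at 15.1 CPM in the control, 12.0 CPM at platform 15 min and 97.9 CPM at platform 60 min, from 28, 24 and 662 UMIs in 17, 18 and 196 cells. In stromal cells, which include fibroblasts, it stood at 190.0, 28.1 and 126 CPM, from 97, 22 and 471 UMIs. The highest level was at platform 60 min in endothelium. In stroma 36 of the 97 control UMIs were in 1 cell, and without the richest cell of each library the control and platform 60 min stood at 124.0 and 117 CPM (ratio 0.944, 0.720 to 1.25). In endothelium the platform 60 min level was 6.46-fold above the control (4.43 to 9.80), and in stroma the 15 min level was 6.77-fold below the control (4.23 to 11.3), while the platform 60 min ratio was 0.663 (0.532 to 0.834). The endothelial ratio of 15 min to control was 0.790 (0.439 to 1.41). Thinned shares of endothelial cells with Il6 were 0.912%, 0.380% and 5.92% (5.07%, 6.84% and 24.0% unthinned, at median depths of 4546, 7660 and 8231 UMIs), and epithelial cells had 0.116%, 0.101% and 0.427% unthinned. In the 47, 27 and 75 endothelial cells without any myeloid marker, Il6 stood at 81.1, 7.13 and 139 CPM from 13, 1 and 48 UMIs, which is too few cells for a ratio and a smaller gap between the control and platform 60 min.

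Endothelial Csf3 was at 138.5 CPM in the control, 0 at platform 15 min and 156 CPM at platform 60 min, from 256, 0 and 1056 UMIs in 18, 0 and 90 cells. The 15 min level was at least 92.5-fold below the control. The ratio of platform 60 min to control was 1.13, and 2.72 without the richest cell of each library, since 161 of the 256 control UMIs were in 1 cell. In endothelium 3 of 6 members were higher at platform 60 min (Il1a 7.38-fold, 1.95 to 62.5, Tnf 3.83-fold and Il6), against 2.51% of genes, with none lower, against 3.43%, and 2 of 3 were lower at 15 min (Il1b and Csf3), against 3.08%, with none higher, against 2.46%. At platform 60 min single endothelial cells held 31 of the 54 Il1a UMIs and 59 of the 112 Tnf UMIs. Without the richest cell of each library the ratios were at least 2.09 for Il1a and 4.81 for Tnf. For endothelial Il1b, 194 of the 285 control UMIs were in 1 cell. Its ratio to the control without the richest cells was 0.131 (0.0672 to 0.235) at 15 min. At platform 60 min it was 1.25, against 0.583 with all cells, neither past the limit. In stroma Il1b and Il6 were lower at 15 min, 2 of 2 against 2.75% of genes, with none higher, against 7.85%. Stromal Il1b was 13.7-fold lower at platform 60 min, 1 of 2 against 4.99%, with none higher, against 9.36%. However, 70 of its 77 control UMIs were in 1 cell. Without the richest cell of each library, 7 control UMIs of Il1b were left. Its platform 60 min ratio was then 0.739 (0.327 to 1.96), and that call was lost. At 15 min stromal Il1b had 12 UMIs with all cells, so without the richest cells it had too few for a call. Stromal Il6 was still lower at 15 min without them (ratio 0.188, 0.104 to 0.322). Granulocyte markers in the endothelial gate stood at 153, 11.5 and 227 CPM and macrophage markers at 398, 300 and 281 CPM, and their part in these results was not tested. In the 47, 27 and 75 endothelial cells without any myeloid marker, Csf3 had 161, 0 and 3 UMIs, in 1, 0 and 1 cells. At platform 60 min that was 8.70 CPM (1.79 to 25.4). Tnf had 1, 0 and 2 UMIs in these cells and Il1a 0, 0 and 1, which are too few cells for a ratio. Of the Csf3 UMIs of a library, epithelium held 85.7%, 89.5% and 31.6% and endothelium 7.83%, 0% and 62.5%.

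**Figure D5:**
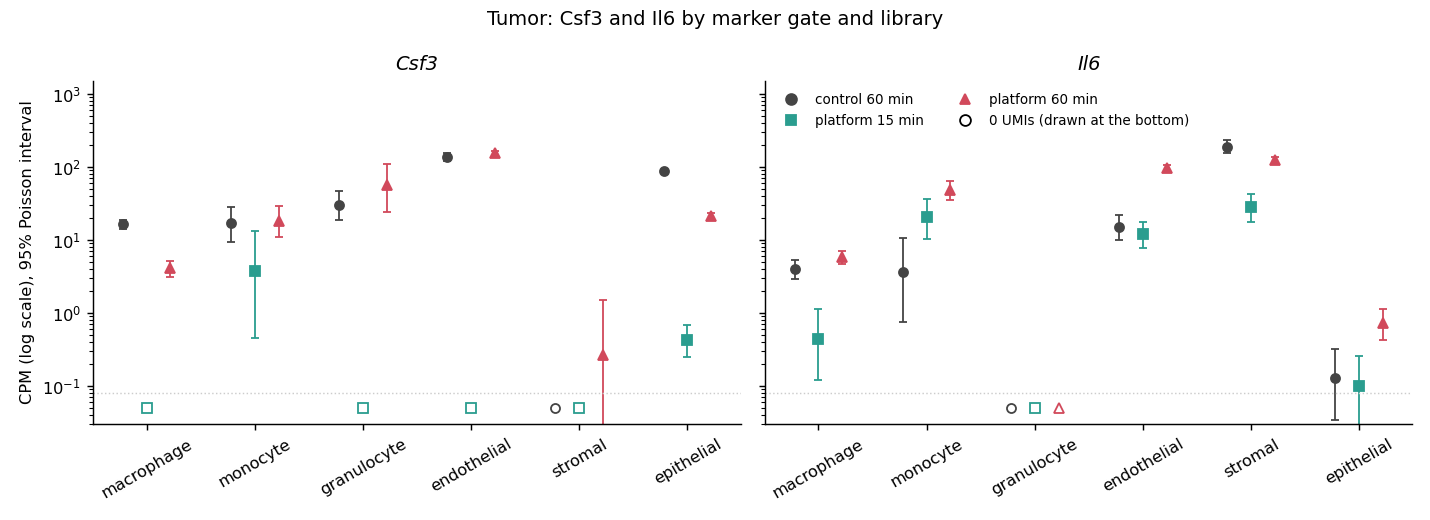
Level (CPM, log axis) of Csf3 and Il6 in tumor classes for the control, platform 15 min and platform 60 min libraries, with exact 95% Poisson intervals and open markers at the bottom for a count of 0. Csf3 in epithelium is at 88.7 CPM in the control and 0.427 CPM at platform 15 min, and Il6 in endothelium is highest at platform 60 min at 97.9 CPM.

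Kidney endothelium had higher levels of 5 members at platform 60 min, along with more macrophage markers. Il1b stood at 4.87 CPM in the control, 10.5 CPM at platform 15 min and 172 CPM at platform 60 min, Tnf at 2.03, 4.95 and 54.8 CPM, and Ifnb1 at 0, 0 and 25.1 CPM, the last from 274 UMIs in 49 of 2603 cells. All 5 members with enough UMIs were higher than in the control, against 6.61% of genes higher and 0.992% lower, by 35.4-fold for Il1b, 27.0-fold for Tnf, at least 20.6-fold for Ifnb1, at least 2.18-fold for Il1rn and at least 2.11-fold for Il10. With 3.69 UMIs in place of 3 for the count of 0, Il1rn (1.77-fold) and Il10 (1.71-fold) were not called and 3 members were. The 6 macrophage markers summed to 121, 64.4 and 471 CPM in this gate, and Ptprc was detected in 1.02%, 0.9901% and 4.11% of its cells. In the 203, 159 and 787 endothelial cells without any myeloid marker, Il1b stood at 2.85 (0.345 to 10.3), 1.82 (0.0461 to 10.2) and 24.96 CPM (19.3 to 31.7), from 2, 1 and 67 UMIs, while Tnf stood at 4.27, 0 and 3.73 CPM and Ifnb1 had 0, 0 and 3 UMIs. Thus Il1b was the only member called there. At platform 15 min Il1b was 2.16-fold above the control (0.972 to 4.96), 1 of 1 member against 3.81% of genes higher and 3.41% lower.

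Genes around the members in the same pathways, a list of 42 receptors, sensors, NF-kB regulators, inflammasome genes and related cytokines, were followed in macrophages by the same limits. In kidney, 0 were higher and 8 lower of 35 tested at platform 15 min (6.15% of all genes higher and 7.05% lower). Among them, Ptgs2 (cyclooxygenase-2) stood at 82.4 against 1.49 CPM, Nlrp3, the inflammasome sensor, at 206 against 35.7 CPM, Tnfaip3, the NF-kB inhibitor A20, at 162 against 23.8 CPM, and Nfkbia, its inhibitor I-kappa-B alpha, at 1214 against 468 CPM, control first in each pair. At platform 60 min 1 of 37 was higher (Tnfaip3, 2.39-fold) and 1 lower (Ifng, from 5 against 20 UMIs), where 4.87% of all genes were higher and 1.04% lower.

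In tumor macrophages 6 of 39 list genes were higher and 9 lower at platform 15 min, where 10.8% of all genes were higher and 4.56% lower. Zfp36, which encodes an mRNA decay factor that binds AU-rich elements, was 2.296-fold higher, and the lipopolysaccharide receptor gene Tlr4 was 2.83-fold higher. The ratio was 0.174 for Nfkb1, 0.239 for Ptgs2, 0.290 for Nlrp3, 0.323 for Cd14 and 0.119 for Il1r2, the IL-1 decoy receptor. By platform 60 min 4 of 39 were higher (Zfp36 2.16-fold, Il27 2.99-fold, Lif 2.91-fold and Csf2 3.55-fold) and 2 lower (Il1r1 and Il1r2, ratios 0.442 and 0.327), where 5.26% of all genes were higher and 2.71% lower. Nlrp3 and Ptgs2 were thus lower at 15 min in macrophages of both tissues, and so were Nfkb1, Tlr2 and Il1r2.

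Tumor macrophages also varied among themselves. The 478 cells with a UMI of Folr2, a marker of resident tissue macrophages, had 436 CPM of Il1a, 2152 CPM of Il1b and 178 CPM of Il10, against 834, 5139 and 95.7 CPM in the 2804 cells without it. The 505 cells with Cd207 (langerin) had 1090.0 CPM of Il1a, against 704 CPM in the 2777 without it. Thus Il10 was on the other side from the IL-1 genes with respect to Folr2. All libraries are summed in these splits and no test was made.

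The genes most like each member were found by Pearson's correlation of log levels over 22 combinations of class and library in each tissue, which share libraries and depth, so r is a description. Nlrp3 was among the 3 genes most like Il1b in kidney (r = 0.972) and tumor (0.977), most like Il1a in kidney (0.875), and most like Il1rn in tumor (0.967). In kidney, Il12b was most like Xcr1 (0.973), a receptor of cross-presenting dendritic cells, and in tumor it was close to Ccl22 (0.925). Xcr1 is one of the dendritic gate's markers, so a high r with a gene of that gate is partly built in. Kidney Ifnb1 was most like Acod1 (0.8003) and Cxcl2 (0.774), and tumor Il1a was close to Ccl4 (0.932). Tnf was led by Lilr4b (0.932) in kidney and Ccrl2 (0.958) in tumor. Il10 in kidney had Ifnb1 itself among its 3 nearest genes (0.738). Tumor Csf3 had no gene above 0.743.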

How the data were processed

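Libraries were made with Chromium droplets and processed by the authors with Cell Ranger 3.1.0 against mm10, with depth evened across the 3 libraries of a tissue. The deposited values are UMI counts per gene and cell, 69691783 to 116998401 UMIs per library. Members, lists and marker genes were chosen with earlier results of these data known.

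Cells with 200 to 3000 detected genes and at most 50% mitochondrial UMIs (kidney) or 200 to 4000 and at most 25% (tumor) were kept, and the upper gene limit was the only treatment of doublets. It removed 14.5% to 22.8% of cells. A cell went to the class with the most of its markers detected, with at least 3 markers and a lead of at least 1, and classes rebuilt in this way may differ from those of the study. UMIs were summed per class and library. Poisson and Clopper-Pearson intervals are exact, and ratios of CPM carry the exact conditional interval. Thinning drew 1000 UMIs per cell. A count of 0 was set at 3 UMIs in ratios. With 1 library per condition, from a single mouse per tissue as the study's methods state, no test was made. The genes named are the 9 members, list genes that passed 2-fold with 20 UMIs, and the 3 nearest genes by correlation. The code for ratios and intervals was tested on simulated counts, and the assignment of cells to classes was not. Python 3.11.15, numpy 2.4.6, scipy 1.17.1, pandas 2.3.3 and matplotlib 3.10.9 were used.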

Additional observations from a re-analysis of the deposited data

Results flagged for a closer look

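The 3 members Il12b, Il1a and Il1b had ratios of platform 60 min to control on opposite sides of 1 in kidney and tumor macrophages, and with 1 library per condition the difference between the tissues was not tested. Il12b was at 0.216 in kidney and 1.21 in tumor. Il1a was at 0.743 in kidney and 1.25 in tumor. Il1b was at 1.19 in kidney and 0.967 in tumor. Of these ratios only kidney Il12b passed the 2-fold limit, from 21 against 60 UMIs, and 34 of the 60 control UMIs were in 1 cell. Without the richest cell of each library its ratio was 0.214 (0.0882 to 0.471), from 9 against 26 UMIs.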

How the results depend on the processing

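Of 1036 ratios of single members recomputed under the alternatives, 992 kept their call and 44 changed it, 4 of all 1036 changed direction, and 956 moved by less than 1.5-fold. The 4 that changed direction were Il10 in kidney macrophages from platform 60 to 15 min, at most 1.71 after thinning (at most 0.320 as reported), Il10 in tumor epithelium at platform 60 min, at 0.756 without the upper gene limit (3.66), Il1rn in tumor epithelium at platform 15 min, at 1.00 after thinning (0.429), and Il1b in tumor epithelium at platform 60 min, at 0.947 without cells that had a myeloid marker (2.11). For Il10 in kidney macrophages the 15 min count was 0 UMIs. Its 2 values are upper limits that follow from setting that count at 3 UMIs, and they show no reversal. Leaving out shared barcodes, mitochondrial UMIs, cells with a myeloid marker or the richest cell, and another limit for a count of 0, were chosen after seeing the data. The cause of a changed count was not tested except for thinning, which by its construction takes many members under 20 UMIs. The counts that follow stand without the share of all genes called under the same alternative, so a changed count cannot be set against that share.

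After thinning, members lower at platform 15 min than in the control numbered 2 (7 as reported) in kidney macrophages, 3 (6) in tumor macrophages, 1 (5) in epithelium, 0 (2) in stroma and 0 (1) in tumor monocytes, and 3 (6) were lower at 15 than at 60 min in kidney macrophages. Members higher at platform 60 min numbered 2 (4) in kidney dendritic cells, 3 (5) in kidney endothelium, 1 (3) in tumor endothelium, 0 (4) in epithelium and 2 (5) in tumor monocytes, those lower 2 (1) in tumor macrophages and 0 (1) in stroma, and kidney endothelium had 0 (1) higher at 15 min.

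Without the upper gene limit, platform 60 min had 1 (0) member lower in kidney dendritic cells, 1 (4) higher in epithelium, 5 (3) higher in tumor endothelium and 3 (0) higher with 0 (1) lower in stroma, and platform 15 min had 0 (1) higher in kidney endothelium and 1 (0) higher in tumor endothelium. With a lead of 2 markers, 2 (1) were lower at 60 min in kidney macrophages, 2 (4) higher in epithelium and 0 (1) higher at 15 min in kidney endothelium. With 4 markers the last was also 0, and with 2 markers 1 (0) was lower in kidney dendritic cells at 60 min. Without cells that had a myeloid marker, 1 (5) was higher in kidney endothelium and 0 (4) in epithelium at 60 min, 1 (5) was lower in epithelium at 15 min, and 0 (1) was higher in kidney endothelium at 15 min.

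Of the 42 pathway genes in macrophages, a limit of 1.5-fold gave 4 (1) higher and 2 (1) lower in kidney and 9 (4) higher and 6 (2) lower in tumor at 60 min, 14 (9) lower in tumor at 15 min, and 1 (0) higher from 60 to 15 min in each tissue. A minimum of 50 UMIs gave 0 (1) lower in kidney and 2 (4) higher with 1 (2) lower in tumor at 60 min. No paired analysis was possible because each condition had 1 library and the labels give no replicate numbers, and no replicate could be left out. A member with 0 UMIs in the 127 kidney macrophages at 15 min could still be at 4.46 CPM. With 3.69 UMIs for a count of 0, 3 (5) were higher in kidney endothelium at 60 min.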

Other observations

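Il6 in kidney was concentrated in very few cells. The mast cell or basophil gate, singled out after its values were seen, held 16 cells over the 3 libraries, and 12 of them had an Il6 UMI. They carried 64 UMIs, 8 in the control, 14 at platform 15 min and 42 at platform 60 min, which was 40.5% of the Il6 UMIs of kidney and all 14 of those in the platform 15 min library. Ptprc was detected in 50% of the 16 cells, against 94.4% of kidney granulocytes, so the name of the gate is uncertain.

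Cells above the upper gene limit, which were left out of the comparisons as reported, held much of some members' RNA. In the tumor control they held 6414 of 9716 Csf3 UMIs (66.0%) and 437 of 649 Il6 UMIs (67.3%), and at platform 15 min 68 of 88 Csf3 UMIs (77.3%). At tumor platform 60 min they held 47.5% of Il6 and 35.7% of Csf3 UMIs. In kidney they held 55.1% of the Il12b UMIs of the control and 42.1% of those at platform 60 min. The type and number of the cells behind such barcodes were not tested. Over all deposited barcodes, Csf3 in tumor stood at 107, 0.869 and 27.2 CPM in the control, platform 15 min and platform 60 min libraries.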
